A study of Homo sapiens with 24 samples.

Results

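The genes described here make, interconvert and recycle nucleotides. A list of 35 members was chosen by name, with no measured value in the rule, although earlier results of these data were known. It held 12 genes of purine ring synthesis and of the supply of phosphoribosyl pyrophosphate (PRPP), 4 of pyrimidine synthesis, 6 of deoxynucleotide synthesis, 6 of salvage, 4 of phosphate transfer and removal, and 3 of folate and single-carbon supply. Of these, 33 were measured, out of 19775 genes in all. ADSS (now ADSS2), the adenylosuccinate synthetase, and UCK2, a uridine and cytidine kinase, were not matched to a probe set with a single gene symbol and are not analysed here. Each gene is given by its brightest probe set on average, among the sets that carry its symbol alone.

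The values come from KARPAS-422, a human diffuse large B-cell lymphoma line whose label in all 24 samples is EZH2 Y641N, a change in the catalytic subunit of the Polycomb complex that methylates histone H3. Cells received an EZH2 inhibitor (EZH2i) at 5 uM or DMSO, its vehicle, and RNA was taken after 1, 2, 3 and 6 days. Each of the 8 groups held 3 arrays, described in the design text as biological replicates. Every group is the same line with the same genotype, at 1 dose of an inhibitor that the labels do not name, so that the comparisons speak for this line and this dose. Levels are log2 RMA values (a background-corrected, quantile-normalized summary of the probes of a set), and a difference is EZH2i minus DMSO of the same day, so that a difference of -1 is a halving. Arrays of a group correlated at 0.994 to 0.997. The B-cell markers CD79A, CD79B, MS4A1, CD22 and PAX5 had mean levels between the 75.1 and 99.2 percentile of all genes. Among T-cell markers CD3G lay at the 95.3 percentile and CD3D at the 63.2, whereas CD3E (34.9) and CD2 (17.2) were low. Of 12 markers of T, myeloid, stromal and epithelial cells, 5 were lower and 1 higher with EZH2i at day 6, with differences of -0.58 to 0.20, beside 26.9% and 18.5% of all genes. Of the B-cell markers, CD79B (1.10), CD22 (0.59) and MS4A1 (0.37) were higher at day 6, and CD79A and PAX5 were not called. The part of these markers in the results was not tested.

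Purine nucleotides are assembled step by step on the sugar phosphate PRPP, whereas the pyrimidine ring is closed first and then joined to PRPP. Ribonucleotide reductase removes the ribose hydroxyl to give the deoxynucleotides for DNA, thymidylate synthase adds the methyl group of thymidine from a folate, and salvage enzymes return free bases and nucleosides to the pool. Proliferating lymphocytes are known to depend on new synthesis, which is why inhibitors of IMP dehydrogenase act as immunosuppressants and antifolates are used against lymphoma.

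After 6 days of EZH2i the members were lower in nearly every step of new synthesis. Of the 33 measured members, 27 fell and 2 rose at day 6 (limma, Benjamini-Hochberg adjusted p under 0.05 over all genes), against a background of 26.9% of all genes called lower and 18.5% called higher. The members' median difference was -0.92, against -0.11 for all genes. In 16 members the EZH2i level was at or under 49.7% of the DMSO level. All 11 purine genes fell, as did all 4 pyrimidine and all 3 folate genes, 5 of 6 deoxynucleotide genes, 3 of 5 salvage genes and 1 of 4 genes of phosphate transfer and removal. RRM2B and NT5C2 rose, while APRT (0.02), DCK (0.07), CMPK1 (0.13) and NME4 (0.26) did not pass the test. The RNA is from whole cultures, in which fewer cells of a kind and less RNA per cell cannot be told apart.

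The differences built up over the 4 days. At day 1 no member was called in either direction (limma), where 0.0101% of all genes were lower and 0.475% higher. An unadjusted limma p under 0.05 was reached by 2 members, beside 1197 of all 19775 genes. These were NME4 (0.33) and APRT (0.14), both with higher levels in EZH2i cells. At day 2 no member was called lower by limma, with a background of 0.824%, although some alternative settings given at the end called members lower. An unadjusted limma p under 0.05 was reached by 13 members, 12 of them with a negative difference, beside 3316 of all 19775 genes. NME4 alone was called higher that day, where 3.57% of all genes were. By day 3, 18 members were lower and NME4 was higher, against 7.65% and 8.64% of all genes. The members' median difference was -0.02, -0.16, -0.28 and -0.92 at days 1, 2, 3 and 6. All 18 members lower at day 3 were among the 27 lower at day 6, and in 25 of those 27 the difference became more negative at each successive day, the exceptions being ADK and PRPS2. The day 3 count depended on which arrays were included: it was 14 without the arrays numbered 1, 4 without those numbered 2 and 9 without those numbered 3. The day 6 count was 26 or 27 whichever array or number was left out.

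**Figure D1:**
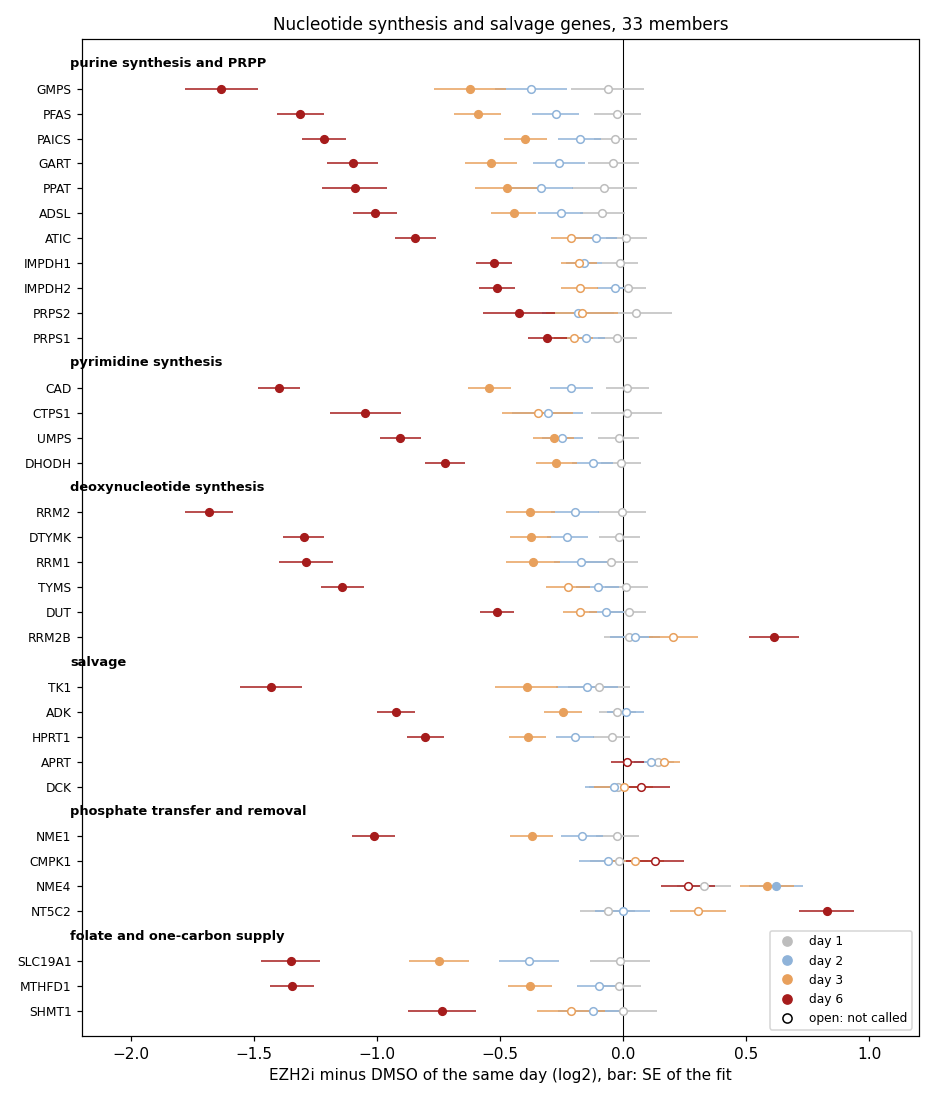
Difference between EZH2i and DMSO cells (log2, x axis; bars are the SE of the fit) for the 33 measured members, grouped by role, at days 1, 2, 3 and 6, with filled points for differences called by limma. Points of day 1 lie near 0 for all members but NME4, and by day 6 the points of 27 members are filled to the left of 0, down to -1.68 for RRM2, with RRM2B (0.61) and NT5C2 (0.83) filled to the right.

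The same course appears within the arms. Between day 1 and day 6, 30 of 33 members were called in EZH2i cells, where 41.0% of all genes were called in either direction. They were the 29 members called against DMSO at day 6, each with the same sign, and APRT, the adenine phosphoribosyltransferase, which fell by 0.31. In DMSO cells no member was called by limma between those days, where 0.0506% of all genes were lower and 0.238% higher. There 2 members, APRT and DTYMK, had an unadjusted limma p under 0.05, beside 1681 of all 19775 genes. Both were lower at day 6 than at day 1 in DMSO cells (-0.19 each). For APRT the day 6 difference between EZH2i and DMSO was not called apart from the day 1 difference. The fall of APRT was therefore not shown to be particular to EZH2i cells. The day 6 difference itself lay below the day 1 difference in 25 members and above it in 2, against 14.4% and 12.3% of all genes, and those 25 left out only PRPS1 and PRPS2 of the 27 that were lower at day 6. These comparisons share arrays with the day 6 comparison with DMSO.

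**Figure D2:**
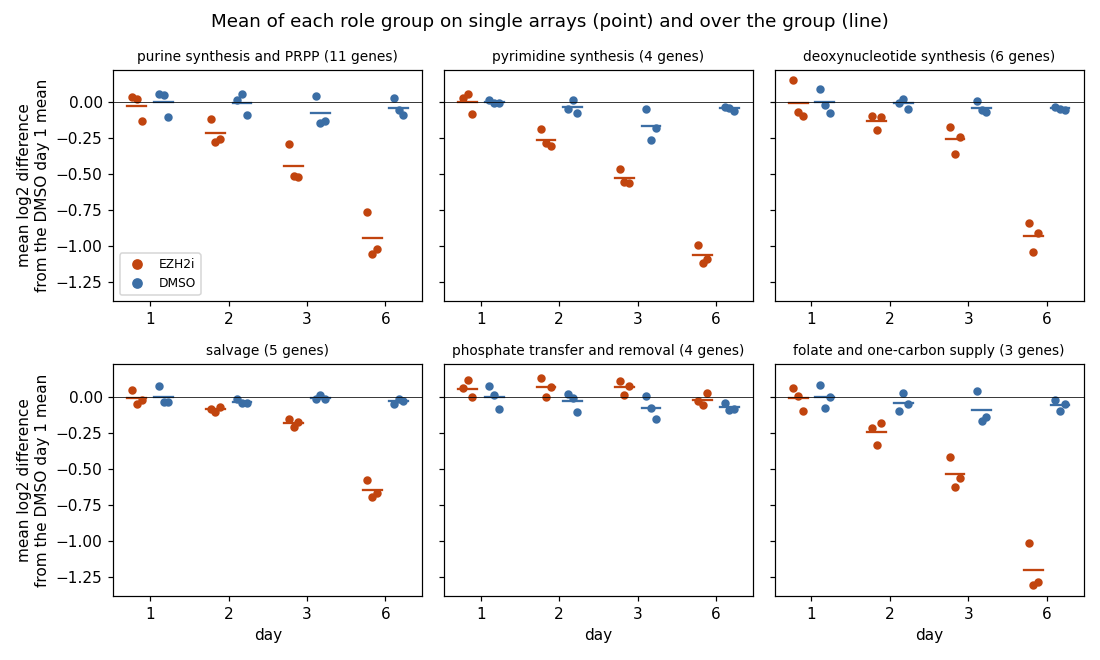
Mean of the members of each role group on every array, as the log2 difference from the DMSO day 1 mean (y axis), with EZH2i points left of DMSO points at each day; lines are group means and days are evenly spaced. The 3 EZH2i arrays of day 6 lie between -1.31 and -1.01 for the folate genes and between -1.06 and -0.76 for the purine genes, while the mean of the 4 genes of phosphate transfer and removal, which holds the fall of NME1 and the rise of NT5C2, lies between -0.06 and 0.02.

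Purine synthesis begins with PRPS1 and PRPS2, the synthetases that make PRPP. PRPS1 measured 10.63, 10.59 and 10.55 in EZH2i cells at day 6, against 10.92, 10.86 and 10.92 in DMSO cells. These groups were apart, and PRPS1 fell by 0.31 (SE 0.08, adjusted p = 0.0029), the smallest of the 27 falls on the probe sets used. A second PRPS1 set fell by 0.54. Its isoenzyme PRPS2 measured 9.99, 9.41 and 9.68 in EZH2i cells and 10.35, 10.05 and 9.96 in DMSO cells. One EZH2i array lay above the lowest DMSO array, so PRPS2 was the single called member whose groups overlapped. Its fall of 0.42 (SE 0.15, adjusted p = 0.023) was not called when any of 3 single arrays was left out, EZH2i replicate 2 or 3 or DMSO replicate 1 (adjusted p of 0.14, 0.055 and 0.13), nor without all arrays numbered 2 (0.25).

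PPAT, the amidotransferase that commits PRPP to the purine ring, and PAICS, which carries out a later pair of ring-building steps, start head to head on opposite strands of chromosome 4, 137 bases apart. GART, a trifunctional enzyme of the same pathway, starts 146 bases from SON, a gene for a splicing protein, on chromosome 21. The stretches between the starts are shown because each lies directly upstream of both of its genes, and SON is a gene outside the pathway. They are RefSeq GRCh38.p14 sequence, 5′ to 3′ on the strand of PPAT (chr4:56435616-56435751) and of GART (chr21:33542893-33543037), with capitals marking CCAAT or its reverse complement ATTGG, the element bound by the factor NFY.
PPAT/PAICS: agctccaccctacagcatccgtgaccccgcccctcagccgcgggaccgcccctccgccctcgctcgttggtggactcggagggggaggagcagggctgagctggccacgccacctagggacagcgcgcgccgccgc
GART/SON: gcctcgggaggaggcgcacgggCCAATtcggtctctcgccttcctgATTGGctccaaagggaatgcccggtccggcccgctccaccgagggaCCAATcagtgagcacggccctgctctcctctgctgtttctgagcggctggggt
The PPAT/PAICS stretch is 75.0% G and C and holds no match to this element, whereas the GART/SON stretch, at 66.2%, holds 3.

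PPAT read 9.02, 8.78 and 8.77 in EZH2i cells at day 6, against 9.996, 9.95 and 9.90 in DMSO cells. PAICS read 11.04, 10.65 and 10.71 in EZH2i cells, against 12.07, 12.03 and 11.95 in DMSO cells. On every array both genes were apart from DMSO, and they fell by 1.09 (SE 0.13) and 1.22 (SE 0.09), to 46.9% and 43.0% of the DMSO level. The within-array difference PPAT minus PAICS changed by -0.04 on average over the 4 days and by 0.12 at day 6 (exact permutation within days, 2-sided, adjusted p = 0.55 over the 5 pairs of members tested), so that unequal change was not detected on these probe sets. A second bright PAICS set fell by 1.88 at day 6, while a second PPAT set fell by 1.01. The difference between those sets was not tested. With the mean of all probe sets of each gene the change had the other sign, 0.20 (exact permutation, adjusted p = 0.069). GART fell by 1.10 (SE 0.10) to 46.6%, with 9.47, 9.43 and 9.15 in EZH2i cells and 10.52, 10.53 and 10.31 in DMSO cells, again without overlap.

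GMPS, which makes GMP, had the largest purine difference on the probe sets used. It measured 9.71, 9.10 and 9.23 in EZH2i cells at day 6, against 11.12, 10.92 and 10.91 in DMSO cells. All 3 EZH2i arrays lay more than 1 log2 unit below every DMSO array, and GMPS fell by 1.63 (SE 0.15, adjusted p = 6.19e-09) to 32.2% of the DMSO level. Dimmer GMPS sets fell less at day 6, by 1.00 and 0.49, and a second bright PAICS set fell by 1.88. PFAS, which acts between GART's steps, read 9.13, 8.65 and 8.97 in EZH2i cells and 10.23, 10.21 and 10.25 in DMSO cells. Its DMSO arrays were within 0.04 of each other and its EZH2i arrays all below them, a fall of 1.31 (SE 0.10). ADSL, the adenylosuccinate lyase, fell by 1.01 (SE 0.09), and ATIC, which closes the purine ring, by 0.85 (SE 0.08).

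IMP dehydrogenase, the first step toward GMP, has a pair of isoenzymes, and both fell. IMPDH1 measured 7.37, 7.08 and 7.22 in EZH2i cells at day 6, against 7.77, 7.75 and 7.74 in DMSO cells. IMPDH2 measured 12.08, 12.03 and 11.90 in EZH2i cells, against 12.58, 12.50 and 12.48 in DMSO cells. Neither gene's groups overlapped, and they fell by 0.53 (SE 0.07) and 0.52 (SE 0.07), to 69.4% and 69.98%. The change in IMPDH2 minus IMPDH1 was 0.04 over the 4 days (exact permutation, adjusted p = 0.32), although it was 0.12 with an adjusted p of 0.000875 when the values were quantile-normalized again. For PRPS2 minus PRPS1 the change was -0.01 (exact permutation, adjusted p = 0.90). A p above the threshold does not show that the isoenzymes moved equally.

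In pyrimidine synthesis CAD, the trifunctional enzyme of the opening steps, led the falls. CAD measured 9.29, 9.22 and 9.34 in EZH2i cells at day 1, 9.02, 9.09 and 8.98 at day 2, 8.66, 8.72 and 8.52 at day 3, and 7.77, 8.13 and 8.02 at day 6. In DMSO cells CAD stayed between 9.13 and 9.45 over the same days. The arms overlapped at day 1 and were apart from day 2 on, with differences of 0.02, -0.21, -0.54 and -1.40 at days 1, 2, 3 and 6 (SE 0.09), of which the last 2 were called (adjusted p = 9.7e-05 and 2.17e-11). At day 6 CAD stood at 37.9% of the DMSO level.

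CTPS1, the CTP synthase known to be required by proliferating lymphocytes, read 9.03, 8.69 and 8.55 in EZH2i cells at day 6, against 9.96, 9.73 and 9.72 in DMSO cells. No EZH2i array reached the DMSO range, and CTPS1 fell by 1.05 (SE 0.14). UMPS, which makes UMP, fell by 0.91 (SE 0.08), and DHODH, the mitochondrial dehydrogenase of the pathway, by 0.72 (SE 0.08).

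Ribonucleotide reductase pairs a large subunit, RRM1, with a small subunit that is either RRM2, present in cycling cells, or RRM2B, a target of p53. RRM2 had the largest difference of all members on the probe sets used. It measured 12.41, 12.22 and 12.02 in EZH2i cells at day 1, 12.13, 11.98 and 12.06 at day 2, 11.83, 11.62 and 11.79 at day 3, and 10.61, 10.45 and 10.55 at day 6. In DMSO cells RRM2 stayed between 12.03 and 12.39 throughout. Most of its fall came after day 3, when the difference was -0.38 (SE 0.10), and at day 6 it was -1.68 (SE 0.10, adjusted p = 9.56e-12), which is 31.1% of the DMSO level. A second bright RRM2 probe set gave a smaller fall of 0.91 at day 6.

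RRM1 read 10.68, 10.21 and 10.40 in EZH2i cells at day 6, against 11.80, 11.75 and 11.61 in DMSO cells. RRM2B read 8.51, 8.44 and 8.46 in EZH2i cells, against 7.97, 7.84 and 7.78 in DMSO cells. Neither gene's groups overlapped, and the directions were opposite: RRM1 fell by 1.29 (SE 0.11) and RRM2B rose by 0.61 (SE 0.10, adjusted p = 3.2e-05), to 153% of the DMSO level. The within-array difference RRM2 minus RRM2B changed by -0.79 over the 4 days and by -2.30 at day 6, negative at all 4 days (exact permutation, adjusted p = 0.00181; 0.085 without the arrays numbered 3). RRM2 minus RRM1 changed by -0.10 over the 4 days and -0.39 at day 6, and was not called (exact permutation, adjusted p = 0.16); with the mean of probe sets its sign turned (0.05, adjusted p = 0.26).

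**Figure D3:**
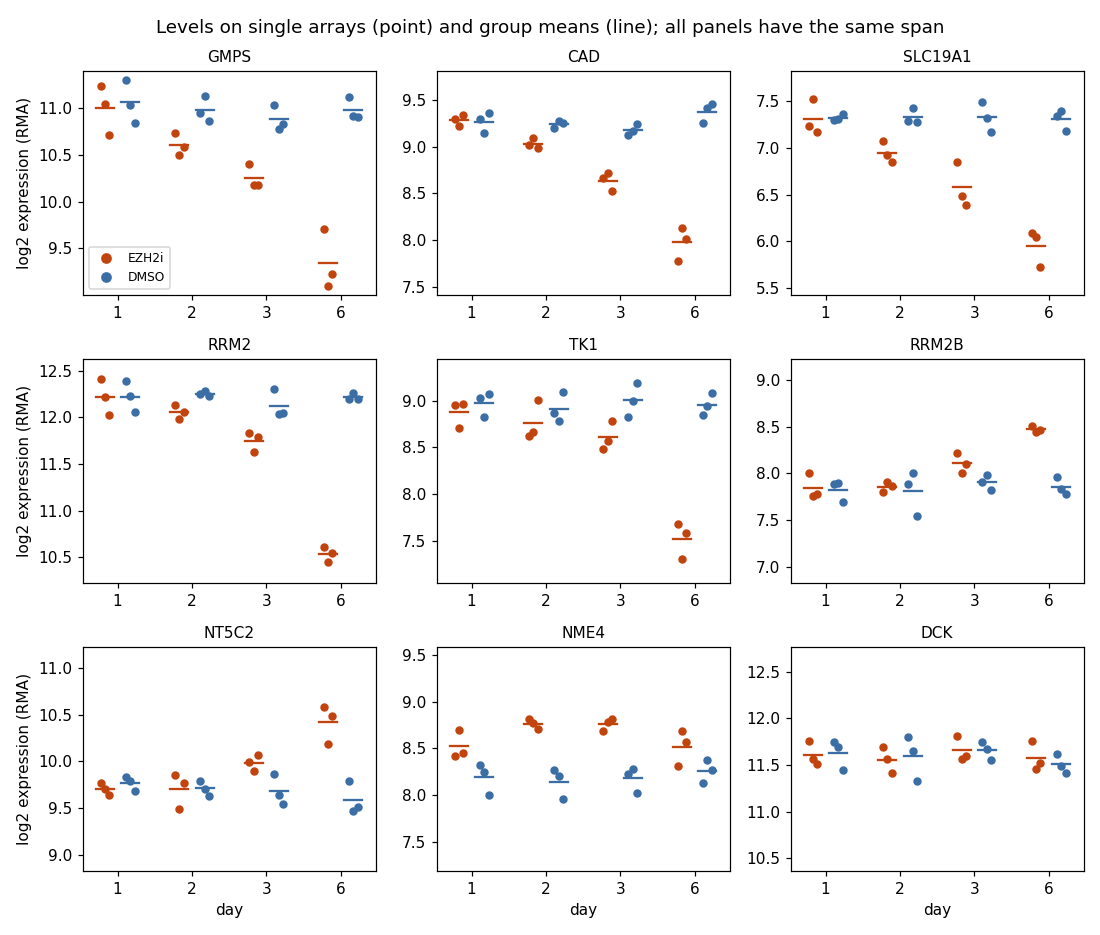
Levels (log2 RMA, y axis) of 9 members on single arrays at each day (x axis, days evenly spaced), EZH2i left of DMSO, with group means as lines; all panels have the same span. EZH2i arrays of GMPS, CAD, SLC19A1, RRM2 and TK1 lie below all DMSO arrays at day 6, those of RRM2B and NT5C2 above, those of NME4 above at days 1 to 3, and those of DCK among them.

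DTYMK, the thymidylate kinase, starts 205 bases from ING5, a gene of a histone acetylation complex, on the other strand of chromosome 2. The stretch between them is shown for the comparison of the neighbours given further on, on the strand of DTYMK (chr2:241686816-241687019, GRCh38.p14, RefSeq), with CCAAT in capitals.
DTYMK/ING5: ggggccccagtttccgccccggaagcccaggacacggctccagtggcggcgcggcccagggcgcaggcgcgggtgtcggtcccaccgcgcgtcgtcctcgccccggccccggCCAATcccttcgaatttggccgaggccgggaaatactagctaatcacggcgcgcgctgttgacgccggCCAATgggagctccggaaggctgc
DTYMK read 8.95, 8.75 and 8.86 in EZH2i cells at day 6, against 10.10, 10.12 and 10.23 in DMSO cells. Its groups were more than 1 log2 unit apart, and DTYMK fell by 1.30 (SE 0.08) to 40.6%. TYMS, the thymidylate synthase, fell by 1.14 (SE 0.09). DUT, which removes dUTP and had the highest mean level of the members' probe sets, fell by 0.51 (SE 0.07).

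Among salvage genes, TK1, the cytosolic thymidine kinase whose protein is abundant in S phase, lies 158 bases from AFMID, a formamidase gene, start to start on chromosome 17. The sequence between them on the strand of TK1 (chr17:78187205-78187361, GRCh38.p14, RefSeq) holds no match to CCAAT on either strand and is shown for the same comparison. The promoter table also lists a TK1 start 310 bases from that of AFMID, and the 250 bases before it hold CCAAT at 2 places.
TK1/AFMID: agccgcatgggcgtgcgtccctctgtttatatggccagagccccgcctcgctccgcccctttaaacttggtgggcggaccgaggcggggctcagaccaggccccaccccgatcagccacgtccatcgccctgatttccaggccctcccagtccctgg
TK1 read 7.68, 7.31 and 7.58 in EZH2i cells at day 6, against 8.84, 8.94 and 9.08 in DMSO cells. Every EZH2i array was more than 1 log2 unit below the DMSO arrays, and TK1 fell by 1.43 (SE 0.13, adjusted p = 4.46e-09) to 37.1%.

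Of the purine salvage genes, ADK and HPRT1 fell, and APRT did not pass the test. ADK, the adenosine kinase, measured 9.99, 10.05 and 10.01 in EZH2i cells at day 6, against 10.84, 10.98 and 10.997 in DMSO cells. HPRT1, which salvages hypoxanthine and guanine, measured 11.09, 11.07 and 11.04 in EZH2i cells, against 11.93, 11.92 and 11.76 in DMSO cells. Both stood clear of DMSO, with falls of 0.92 (SE 0.08) and 0.81 (SE 0.08). APRT, the matching enzyme for adenine, differed by 0.02 (SE 0.07, adjusted p = 0.86), and its groups overlapped. DCK, the deoxycytidine kinase that activates cytarabine, differed by 0.07 (SE 0.12, adjusted p = 0.65) at a level of 11.58 ± 0.16 in EZH2i cells and 11.51 ± 0.10 in DMSO cells (SD, n = 3 each).

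NME1, a nucleoside diphosphate kinase of the cytosol, read 11.63, 11.57 and 11.74 in EZH2i cells at day 6, against 12.52, 12.70 and 12.76 in DMSO cells. Without overlap between the groups, NME1 fell by 1.01 (SE 0.09) to 49.5%. Its mitochondrial relative NME4 took another course: EZH2i arrays read 8.81, 8.77 and 8.71 at day 2 and 8.69, 8.78 and 8.81 at day 3, against DMSO arrays of 8.26, 8.20 and 7.96 at day 2 and 8.22, 8.28 and 8.03 at day 3. NME4 was higher on every EZH2i array of those days, by 0.62 (SE 0.11, adjusted p = 0.0011) and 0.58 (SE 0.11, adjusted p = 0.00062). At day 1 its difference was 0.33 and at day 6 0.26 (adjusted p = 0.36 and 0.058), and the change in difference between those days was not called (adjusted p = 0.81).

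NT5C2, a nucleotidase that dephosphorylates IMP and GMP, had the opposite sign to the synthesis genes. It measured 10.59, 10.19 and 10.48 in EZH2i cells at day 6, against 9.79, 9.47 and 9.51 in DMSO cells. The lowest EZH2i array lay above the highest DMSO array, and NT5C2 rose by 0.83 (SE 0.11, adjusted p = 2.46e-06), to 177% of the DMSO level. Its difference at day 3 was 0.30 (SE 0.11, adjusted p = 0.070). CMPK1, which phosphorylates CMP and UMP, differed by 0.13 (SE 0.12, adjusted p = 0.39) at day 6.

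All 3 folate genes fell at day 6, and 2 of them were already lower at day 3. SLC19A1, the carrier that brings reduced folates and methotrexate into the cell, measured 7.07, 6.93 and 6.84 in EZH2i cells at day 2, 6.85, 6.49 and 6.39 at day 3, and 6.09, 6.04 and 5.73 at day 6. The DMSO arrays of those days stayed between 7.17 and 7.49. SLC19A1 was thus below DMSO on every array from day 2 on; its difference was -0.38 at day 2 (adjusted p = 0.080), -0.75 at day 3 and -1.35 (SE 0.12) at day 6. Another SLC19A1 probe set of nearly the same mean level gave smaller falls, -0.39 at day 3 and -0.53 at day 6, both called. MTHFD1, the trifunctional enzyme that makes formyl folate for the purine ring, read 10.80, 10.43 and 10.55 in EZH2i cells at day 6, against 11.92, 11.93 and 11.96 in DMSO cells. Those groups were more than 1 log2 unit apart, a fall of 1.35 (SE 0.09, adjusted p = 6.57e-11) to 39.3%. SHMT1, the cytosolic serine hydroxymethyltransferase and the dimmest member, fell by 0.74 (SE 0.14) to 60.0%. Its mean level of 4.92 was only at the 36.3 percentile of all genes. A still dimmer SHMT1 set was not called at day 6 (-0.165, limma, adjusted p = 0.21).

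Members that start beside another gene were then compared with that neighbour, a choice made after the members' values had been seen. Besides PPAT and PAICS, 4 members had a measured gene starting within 1000 bases on the other strand. SON measured 11.34, 11.32 and 11.35 in EZH2i cells at day 6, against 11.15, 11.12 and 10.97 in DMSO cells, a difference of 0.26 (SE 0.11, adjusted p = 0.053). The differences of GART and SON had opposite signs at day 6, although that of SON was not called, and GART minus SON changed by -0.53 over the 4 days and -1.36 at day 6 (exact permutation, adjusted p = 0.00085 over 4 pairs).

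AFMID moved with TK1 in sign: it read 5.86, 5.76 and 5.97 in EZH2i cells at day 6 and 6.76, 6.63 and 6.55 in DMSO cells, and fell by 0.79 (SE 0.11, adjusted p = 4.76e-06). TK1 minus AFMID changed by 0.23, 0.06, 0.08 and -0.65 at days 1, 2, 3 and 6. The mean of -0.07 over the 4 days (exact permutation, adjusted p = 0.51) joins values of opposite sign and does not show equal courses. ING5 differed by -0.28 (SE 0.14, adjusted p = 0.12) and AP3M1, an adaptor protein gene 393 bases from ADK, by 0.17 (SE 0.09, adjusted p = 0.13). DTYMK minus ING5 and ADK minus AP3M1 each changed by -0.30 (exact permutation, adjusted p = 0.043 for both). With the mean of probe sets these changes were -0.06 and -0.19, and neither was called. Neither call held when all arrays of any 1 number were left out, whereas the GART and SON call did, with a change of -0.22 (adjusted p = 0.040) where the mean of all probe sets was used.

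**Figure D4:**
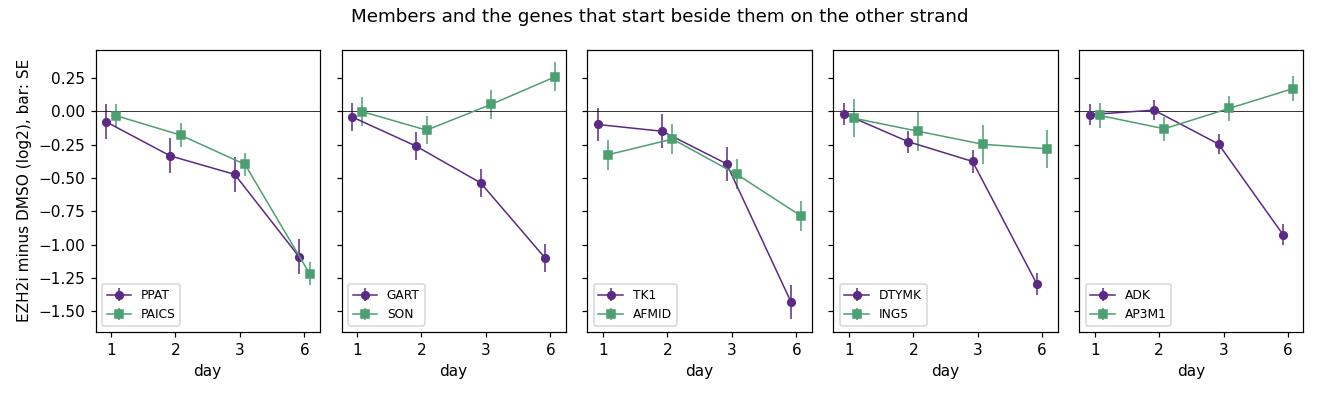
Difference between EZH2i and DMSO cells (log2, y axis; bars are SE) at days 1, 2, 3 and 6 (x axis, evenly spaced) for 5 pairs of genes that start side by side on opposite strands. PPAT and PAICS reach -1.09 and -1.22 at day 6 on the probe sets used, GART (-1.10) parts from SON (0.26), and AFMID (-0.79) lies between TK1 (-1.43) and 0.

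Short motifs were searched on both strands in the 250 bases before the starts of the 30 members listed in the RefSeq promoter table, which gives 46 windows because 9 members have several starts, some of them overlapping. CACGTG, the element bound by MYC and its relatives, was in 10.9% of the members' windows and 6.34% of all 35116 windows in the table. CCAAT was in 37.0% of the members' windows, against 32.0% of all. Of the forms bound by E2F factors, TTTGGCGC was in 2 of the members' 46 windows (4.35%), against 0.55% of all. These windows lie before 1 start of DUT and 1 of GART, and the other listed starts of both genes lacked the element. TTTCGCGC was in none of 46, against 0.44% of all. These are counts of letters in a fixed window and not of bound sites.

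From a textbook list of nucleotide metabolism without the members, 50 further genes were measured, of which 17 were lower and 8 higher at day 6, beside 26.9% and 18.5% of all genes, with a median difference of -0.19. Whether these counts differ from the background was not tested. The largest rises were of CMPK2, a mitochondrial nucleotide kinase induced by interferon (1.95, SE 0.20), AMPD3, an AMP deaminase (1.74, SE 0.14), NT5C3A, a pyrimidine nucleotidase (1.41, SE 0.23), and SAMHD1, which breaks down deoxynucleotide triphosphates (1.12, SE 0.16). The largest falls were of SHMT2, the mitochondrial serine hydroxymethyltransferase (-1.24, SE 0.14), PNP, the purine nucleoside phosphorylase (-1.14, SE 0.08), GGH, which trims folate polyglutamates (-0.999, SE 0.08), and DCTPP1, a deoxynucleotide pyrophosphatase (-0.996, SE 0.08). CMPK2 and AMPD3 were already higher at day 2 (1.00, adjusted p = 0.0036, and 0.54, adjusted p = 0.025).

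Genes of proliferation moved in the same direction at day 6. MYC differed by -0.73 (SE 0.12), E2F1 by -0.74 (SE 0.08), MKI67 by -1.25 (SE 0.10), PCNA by -0.996 (SE 0.08), and MCM2 to MCM7, the helicase of DNA replication, by -2.02 to -1.13. All 10 were called lower, and their part in the members' falls was not tested.

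For 24 members other probe sets exist, 48 in all. They were tested in a separate limma fit over all 41091 probe sets with a single symbol, whose share of calls is not given here. In the fit with 1 set per gene, 26.9% of all genes were lower and 18.5% higher at day 6. Of the 48 sets, 32 were lower at day 6, 14 were not called and 2 were higher, with the sign opposite to that of the set used for their gene. These were a dim PPAT set (0.73, mean level 5.81) and a dim DTYMK set (0.38, mean level 3.04). A second bright PAICS set fell by 1.88 and a DUT set by 1.62, in each case more than the set used here.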

How the data were processed

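RNA of 24 KARPAS-422 samples was measured on Affymetrix U133 Plus 2 arrays. The deposited values are log2 expression per probe set, which the authors made with RMA, and the submitters' processing notes name R 2.10.1. The log base is not given in the sources used here and was read from the range of the values, 1.72 to 14.33. RMA gives no detection calls, so dim genes may show too small a difference, and the number of arrays limits the precision.

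Of 54613 probe sets, 41091 carry a single symbol. The brightest of these was kept for each of 19775 genes. Differences were tested with limma 3.58.1 in R 4.3.3 (lmFit with a coefficient for each of 8 groups, eBayes; 16 residual and 5.22 prior degrees of freedom). Calls were made at an adjusted p under 0.05 (Benjamini-Hochberg over all genes of a contrast), because an exact test of 3 against 3 cannot go below 0.1. Changes within pairs of genes were tested by exact permutation within days (160000 regroupings, 2-sided). The procedures were tested on simulated data. All members are named with their day 6 difference; single arrays are given for the largest differences of each role group, for members called higher and for paired genes. The members and lists were chosen with earlier results of these data known. Equal replicate numbers in EZH2i and DMSO groups correlated above 0.1 after removal of group means in 11 of 12 cases. The exception was number 2 of day 2 (0.04). Across all groups the median correlation was 0.24 for equal numbers and -0.13 for other numbers. The main fit nevertheless did not take the numbers as pairs. With the replicate block, 9 members were lower at day 2 and 24 at day 3, against 0 and 18 in the main fit.

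Alternatives were the mean of all probe sets, subtraction of array medians, a further quantile normalization, removal of the dimmest 40% of genes, the replicate block, a fit limited to the groups compared, and leaving out arrays.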

Additional observations from a re-analysis of the deposited data

Results flagged for a closer look

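For 27 members the EZH2i difference at day 6 departed from that at day 1, by limma's test of the difference between both effects (adjusted p under 0.05 over all genes, 3 arrays in each of the 4 groups). Of all genes, 14.4% were called below 0 and 12.3% above 0 in this test. The values are log2, day 6 difference minus day 1 difference. Below 0 were the purine genes GMPS (-1.57), PFAS (-1.29), PAICS (-1.19), GART (-1.06), PPAT (-1.02), ADSL (-0.92), ATIC (-0.86), IMPDH2 (-0.53) and IMPDH1 (-0.51). The pyrimidine genes CAD (-1.42), CTPS1 (-1.06), UMPS (-0.89) and DHODH (-0.72) also lay below 0. So did the deoxynucleotide genes RRM2 (-1.68), DTYMK (-1.28), RRM1 (-1.24), TYMS (-1.15) and DUT (-0.54), and the salvage genes TK1 (-1.33), ADK (-0.90) and HPRT1 (-0.76). NME1 (-0.99) and the folate genes SLC19A1 (-1.34), MTHFD1 (-1.33) and SHMT1 (-0.74) completed the 25. RRM2B (0.59) and NT5C2 (0.89) lay above 0.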

How the results depend on the processing

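The day 6 counts, 27 members lower and 2 higher, stayed within 26 to 27 and 2 to 3 when arrays were left out. Day 3 depended on the arrays: the 18 lower members became 4 to 17 with arrays left out, 4 of them without replicate 2 and 9 without replicate 3. Members higher at day 3 numbered 3 after quantile normalization again, 3 without the dimmest 40%, 2 with the replicate block, and 1 to 2 with single arrays left out, against 1. Members lower at day 2 numbered 1 with the mean of probe sets, 1 after quantile normalization again and 9 with the replicate block, against 0. Members whose day 6 difference lay above that of day 1 numbered 1 with the mean of probe sets and 1 to 2 with arrays left out, against 2. IMPDH2 minus IMPDH1 was called after quantile normalization again (0.12, exact permutation, adjusted p = 0.000875). RRM2 minus RRM2B ranged from -0.82 to -0.75 with arrays of 1 number left out, and was not called without replicate 3 (exact permutation, adjusted p = 0.085). Without a call in either setting, the mean of probe sets turned the sign of RRM2 minus RRM1 (0.05) and PPAT minus PAICS (0.20). The causes were not tested. For single members, 5 of 494 results at day 6 lost their call, all for PRPS2, and 4 gained one, all for NME4; at day 3, 61 lost and 23 gained one; none reversed. As to the replicate block, 21 of 24 arrays correlated more with arrays of the same number than with others, a hint from the data and not from the design. DTYMK minus ING5 and ADK minus AP3M1 also lost their calls with the mean of probe sets (-0.06 and -0.19, exact permutation, adjusted p = 0.12 and 0.17) and after quantile normalization again (0.073 for both), and ADK minus AP3M1 with the replicate block (0.10).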
